A study of Mesocricetus auratus with 10 samples.

Results

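The early secretory pathway carries newly made proteins into the endoplasmic reticulum (ER) and on to the Golgi. Its genes were examined here in liver RNA of the golden hamster, Mesocricetus auratus. The 10 males of the treated group ate a high fat diet (HFD), and each was set against a single pool made from the livers of 10 animals on a standard diet (STD). Series title and design present the diet as a means to induce fatty liver; no age, genotype or feeding time is stated in the labels, and the STD animals were measured only as the pool. Each HFD liver was hybridised with the pool on 2 two-colour arrays with exchanged dyes, and the mean of both arrays gave 1 log2 ratio of HFD over STD per animal. The members were chosen by gene name: all probes named for SEC genes with a number, COPI subunits (COP), TRAPPC, SAR1, TMED, SSR, SPCS and SRP genes, without the SRPK kinases. This gave 69 names carried by 357 probes, of 14434 names and 67053 named probes on the array. All 69 were tested, each by its brightest probe, among 13827 genes past the filter on dim probes. In 68 of the 69 this probe stood well above background in both RNAs on all 20 arrays; SEC61A2 did so in the pool on 17. For 5 names (SEC14L1, SEC14L2, SEC14L4, SEC14L5 and SEC3L1) the name places the gene outside the pathway, which leaves 64 members of it.

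As background, a signal sequence emerging from the ribosome is bound by the signal recognition particle (SRP), which docks the ribosome at the SEC61 channel of the ER membrane. The translocon-associated protein (TRAP) complex of the SSR genes sits beside the channel, and signal peptidase removes the signal sequence. Finished proteins leave in vesicles with a COPII coat, escaped residents return in vesicles with a COPI coat, p24 proteins (TMED) help to sort cargo, TRAPP complexes tether vesicles and SNAREs fuse them. Hepatocytes send most plasma proteins and the lipoproteins through this route.

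The array probes are 60 bases long and were designed on assembled hamster transcripts. The files place none of the members' probes on a chromosome, and 63 of the 69 names occur among the RefSeq symbols of the hamster assembly BCM_Maur_2.0. By sequence, the brightest probes of TMED3 and SEC63 hold coding sequence of the gene as listed. Those of SEC61B, SEC61G, SPCS2, SSR4, COPB2 and SAR1B hold its reverse complement. What such reverse-strand probes measure was not tested, and the strand was not examined for all members. All 5 probes of TMED3 are shown, since this p24 gene had the highest ratio of the members, from the brightest to the dimmest. Capitals mark the run of 27 bases that the first shares with the second, so that these 2 read partly the same stretch.
TMED3 probe 1: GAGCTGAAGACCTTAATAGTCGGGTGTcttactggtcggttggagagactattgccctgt
TMED3 probe 2: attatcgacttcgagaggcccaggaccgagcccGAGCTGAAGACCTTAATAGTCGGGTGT
TMED3 probe 3: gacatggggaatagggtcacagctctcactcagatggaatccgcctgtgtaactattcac
TMED3 probe 4: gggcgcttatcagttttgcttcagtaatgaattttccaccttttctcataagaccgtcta
TMED3 probe 5: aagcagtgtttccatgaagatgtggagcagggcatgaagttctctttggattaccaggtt
These 5 probes gave mean log2 ratios of 0.84, 0.72, 0.54, 0.69 and 0.48 in that order. The next set shows the brightest probes of SEC63, SRP54A and TMED2 and further probes of SEC61A1, SRP54B and SEC22B. Results of these genes are described where the genes come up.
SEC63: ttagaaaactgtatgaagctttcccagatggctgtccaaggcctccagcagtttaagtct
SEC61A1: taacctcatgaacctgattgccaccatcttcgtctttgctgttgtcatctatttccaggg
SRP54A: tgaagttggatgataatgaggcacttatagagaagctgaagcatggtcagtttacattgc
SRP54B: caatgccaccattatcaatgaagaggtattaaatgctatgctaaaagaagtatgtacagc
SEC22B: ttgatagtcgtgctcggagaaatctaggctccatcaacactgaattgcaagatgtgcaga
TMED2: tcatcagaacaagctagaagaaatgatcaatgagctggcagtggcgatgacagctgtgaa
Their mean log2 ratios were -0.70 for SEC63, -0.40 for SEC61A1, -0.23 for SRP54A, -0.54 for SRP54B, 0.35 for SEC22B and -0.01 for TMED2.

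The array data had these properties. The 20 arrays held no saturated spot, and the HFD channel was well above background at 77.2% to 97.7% of its probes. The 6 arrays of animals 5 to 10 with HFD in Cy3 stood apart: the SD of the log2 ratio over all genes lay between 0.39 and 0.50 on them and between 0.24 and 0.35 on the other 14. For genes named below, the mean on the other 14 arrays is given where it lost or gained a call or moved the size of a called gene by over 1.5 times. The p-values measure the spread between the 10 HFD animals and take the pool as a reference without error, and the number of arrays limits the precision.

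The main comparison asked which genes differed between HFD liver and the STD pool. Of the 69 members, 36 were lower, 16 were higher and 17 did not pass the test (limma, two-sided, Benjamini-Hochberg over 13827 genes, threshold 0.05). The 52 called members are 75.4% of the 69, against 60.3% of all genes. Over all genes tested, 28.9% were lower and 31.4% were higher, so the share of lower members, 52.2%, lay above the background and that of higher members, 23.2%, below it. The median log2 ratio of the members was -0.09, against 0.01 over all genes. Their median absolute log2 ratio was 0.18, against 0.11 over all genes. Of the members, 9 were called and at least 1.5-fold changed, or 13%, against 3.88% of all genes: TMED3 was higher, and SRP68, SEC61B, SPCS2, SSR4, COPB2, SEC63, SEC61G and SAR1B were lower. For SEC61B, SPCS2, SSR4, COPB2, SEC61G and SAR1B this is the ratio of a reverse-strand probe. In 25 members, or 36.2%, every one of the 10 animals lay below 0, against 15.2% of all genes, and in 9 members every animal lay above 0, against 16.3% of all genes. Among the 64 members of the pathway by name, 34 were lower and 14 higher, with a median of -0.09. The members are few and were tested with all other genes, and no test was made of the list as a whole.

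**Figure D1:**
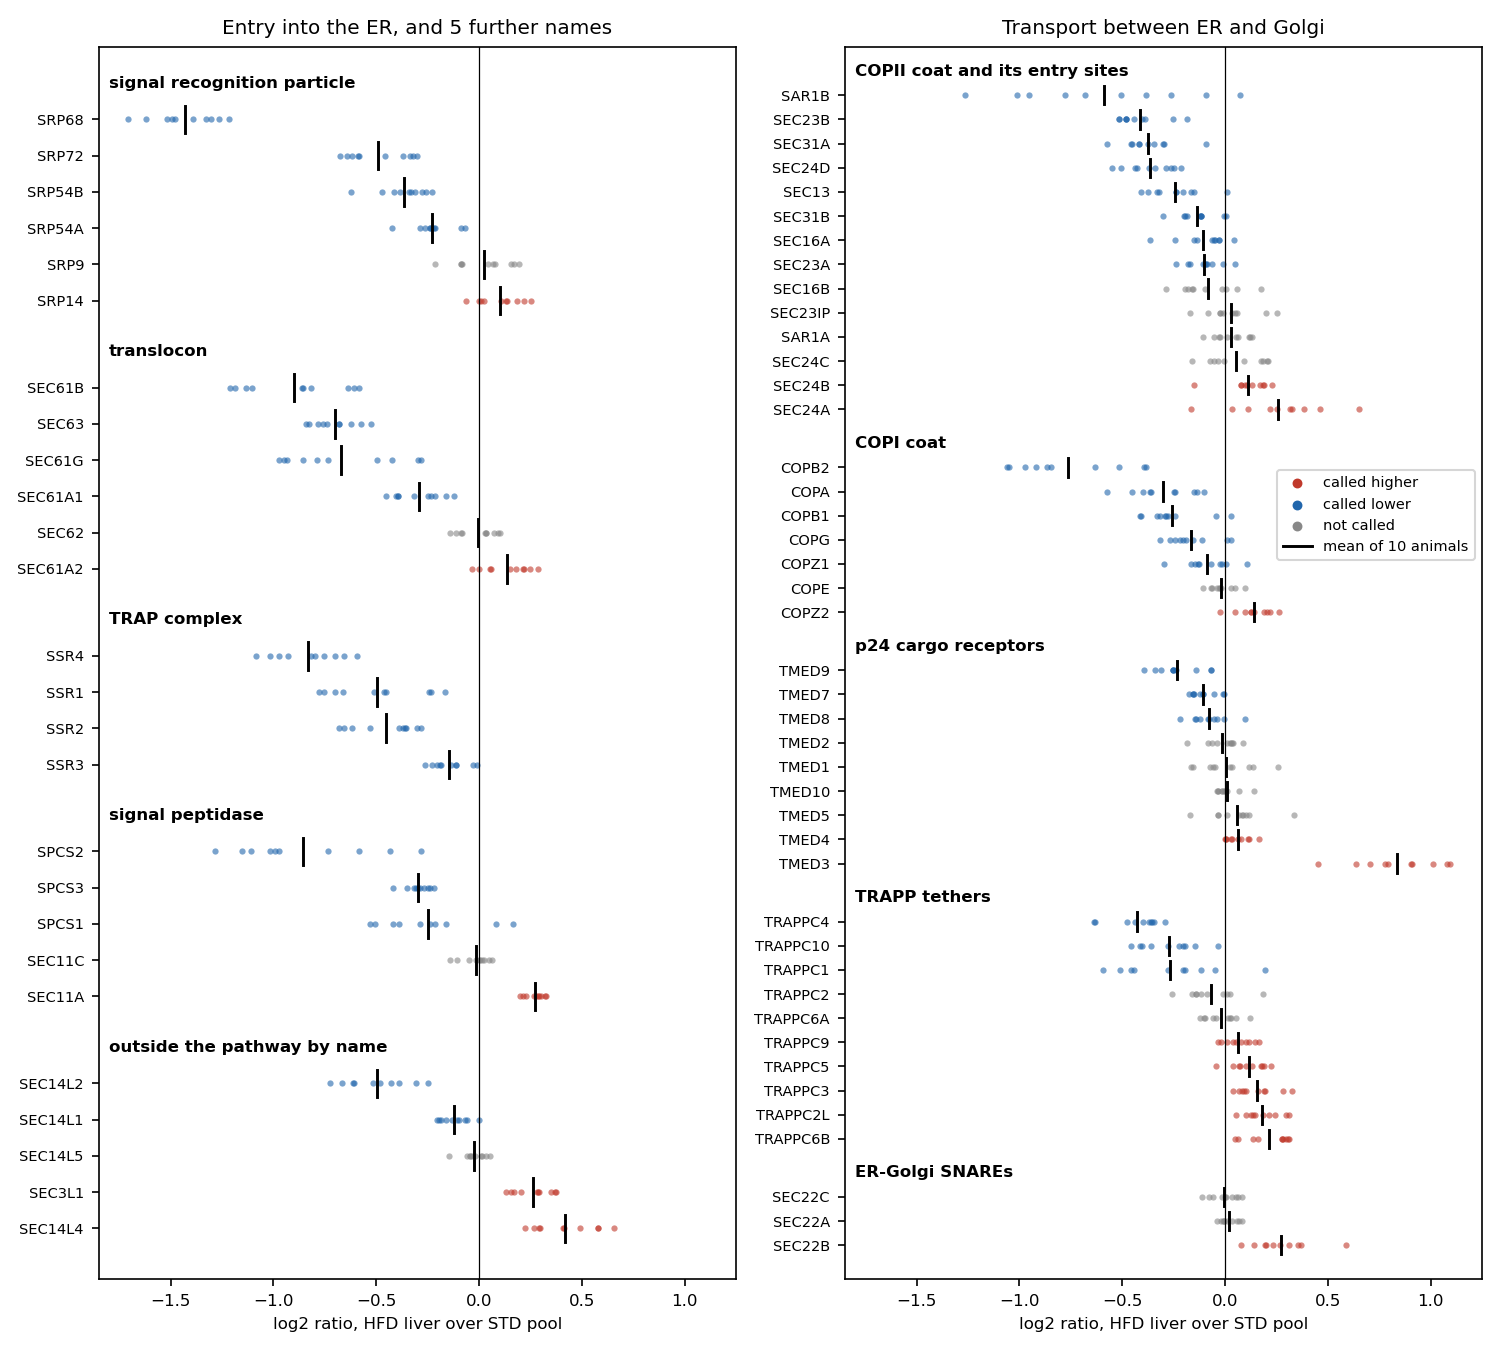
Log2 ratio of HFD liver over the STD pool (x axis) for all 69 members by role (y axis); each point is 1 of 10 animals, the black line is their mean, and the colour gives the call. SRP68 lies between -1.71 and -1.22 and TMED3 between 0.45 and 1.09, with no animal of either near 0.

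Genes of entry into the ER and genes of transport beyond it were counted apart. Of the 21 members in the SRP, the translocon, the TRAP complex and signal peptidase, 15 were lower, 3 were higher and 3 did not pass, with a median of -0.30. Of the 43 members of transport between ER and Golgi, 19 were lower, 11 were higher and 13 did not pass, with a median of -0.02. In 14 of the 21 entry genes, or 66.7%, all 10 animals lay below 0. This held for 9 of the 43 transport genes, or 20.9%, and for 15.2% of all genes. Lower members made up 71.4% of the entry genes and 44.2% of the transport genes, against 28.9% of all genes. Higher members made up 14.3% and 25.6%, against 31.4% of all genes. The counts by role and by list below stand against the same shares of all genes. The difference between the entry and the transport genes was not tested. Both sets hold genes with a reverse-strand brightest probe, such as SEC61B and SPCS2 or COPB2 and SAR1B. The part of these genes in the counts was not tested.

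**Figure D2:**
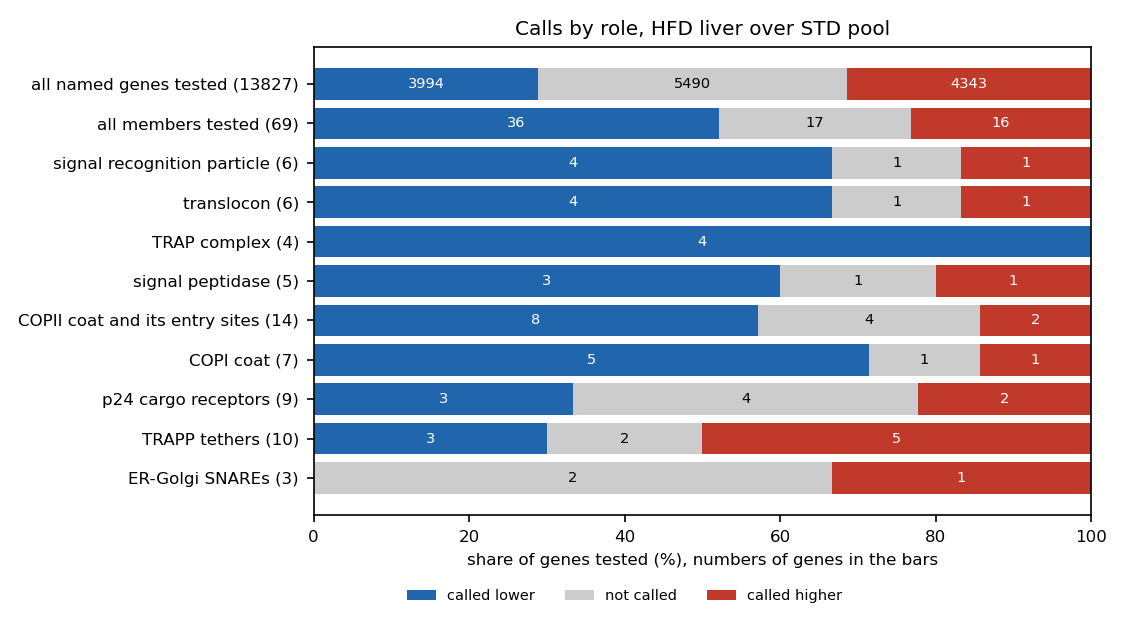
Share of genes (x axis, %) called lower, not called and called higher for all named genes, all members and the 9 roles (y axis, number tested in brackets); the number of genes is written in each bar. The TRAP complex has 4 lower of 4, and the TRAPP tethers have 5 higher of 10.

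In the SRP, 4 of 6 members were lower, SRP14 was higher and SRP9 did not pass. SRP68, which with SRP72 forms the largest protein pair of the particle, had log2 ratios of -1.71 in the lowest animal, a median of -1.43 and -1.22 in the highest. This was the lowest mean of all members, -1.43 ± 0.16 (SD, n = 10), or 2.70-fold lower (adjusted p = 1.19e-10, limma). The size belonged to the brightest probe: the 7 further probes of the same assembled transcript were all lower as well, but lay between -0.63 and -0.17. SRP72 was lower by a mean of -0.49 ± 0.15, with 1 probe. SRP54, the subunit that binds the signal sequence, appears under 2 names. By their brightest probes SRP54A was at -0.23 ± 0.10 and SRP54B at -0.36 ± 0.12, both below 0 in all 10 animals. The further SRP54B probe, whose sequence is shown above, was at -0.54. SRP14, an Alu-domain subunit, was at 0.10 ± 0.10, above 0 in 8 of 10 animals. SRP9, its partner, was at 0.02 ± 0.14 by its brightest probe (adjusted p = 0.64), while a probe on another transcript of that name was at -0.39.

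In the translocon, SEC61B, SEC63, SEC61G and SEC61A1 were lower, SEC61A2 was higher and SEC62 did not pass. SEC61B, the beta subunit of the channel, ranged from -1.21 over a median of -0.86 to -0.59, and all animals lay well below 0. Its mean was -0.90 ± 0.25, or 1.87-fold lower (adjusted p = 2.07e-07, limma), and its 2 further probes were at -0.72 and -0.62. SEC61G, the gamma subunit, was at -0.67 ± 0.27 on 1 probe, and -0.31 on the 14 arrays. SEC61A1, the main pore subunit, was at -0.29 ± 0.11 and all 8 further probes were lower too, between -0.47 and -0.17. SEC63, which with SEC62 serves proteins that enter after translation and recruits BiP, was at -0.70 ± 0.11 (adjusted p = 3.84e-09, limma), and 9 of its 10 further probes were lower.

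SEC62 and SEC61A2 stood apart from the rest of the translocon. The 2 SEC62 probes of the transcript with the brightest probe were at -0.01 and -0.02, neither past the test, but the 2 probes of a second transcript of the same name were at -0.77 and -0.80 and both were called lower. On the 14 arrays the brightest SEC62 probe was called lower as well, at -0.12. SEC61A2, the second pore gene, was at 0.14 ± 0.11, but -0.01 on the arrays with HFD in Cy5, so that its direction turned with the dye orientation. On the 14 arrays it was at 0.04 and did not pass.

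All 4 genes of the TRAP complex were lower in all 10 animals. SSR4, its delta subunit, ranged from -1.08 over -0.81 to -0.59, with a mean of -0.83 ± 0.16, or 1.78-fold lower (adjusted p = 1.69e-08, limma), on 1 probe. SSR1, the alpha subunit, was at -0.50 ± 0.23 and SSR2, the beta subunit, at -0.45 ± 0.15; on the 14 arrays they were at -0.30 and -0.42, in the other order. SSR3, the gamma subunit, had the smallest size: it ranged from -0.26 to -0.01 with a mean of -0.15 ± 0.08. Its mean on the arrays with HFD in Cy3 was -0.03 and on those with HFD in Cy5 -0.27.

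In signal peptidase, the accessory subunits SPCS1, SPCS2 and SPCS3 were lower, the catalytic subunit SEC11A was higher and its paralog SEC11C did not pass. SPCS2 ranged from -1.28 over -0.98 to -0.28, with a mean of -0.86 ± 0.33, or 1.81-fold lower (adjusted p = 3.87e-06, limma). All 4 further probes, on other transcripts of the name, were lower, between -0.81 and -0.45. On the 14 arrays SPCS2 was at -0.47 (adjusted p = 3.98e-06, limma). SPCS3 was at -0.30 ± 0.06. SEC11A was the steadiest member of the group: it ranged from 0.20 over 0.28 to 0.32, with a mean of 0.27 ± 0.04 (adjusted p = 3.75e-07, limma), and its 4 further probes were all higher, between 0.12 and 0.27. SEC11A was equally placed in both dye orientations, at 0.28 and 0.27. SEC11C was not, at 0.18 on arrays with HFD in Cy5 and -0.21 on those with HFD in Cy3. SPCS1 was at -0.25 ± 0.23 but turned with the dyes, with 0.08 on arrays with HFD in Cy5, and did not pass on the 14 arrays, at -0.05.

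In the COPII coat and its entry sites, 8 of 14 members were lower, 2 were higher and 4 did not pass. The lowest mean was that of SAR1B, the GTPase that starts the coat and is needed for large lipoprotein carriers, at -0.59 ± 0.43 (adjusted p = 0.000631, limma). It ranged from -1.26 over -0.60 to 0.07, with 1 animal above 0, the widest spread of the members. Without the 6 arrays that stood apart it was still lower, but at -0.18 (adjusted p = 0.0246, limma). The inner coat gene SEC23B was at -0.41 ± 0.11, the outer coat gene SEC31A at -0.37 ± 0.13 and the cargo adaptor SEC24D at -0.36 ± 0.11, each below 0 in all 10 animals. SEC13, the partner of SEC31A in the outer cage, was at -0.24 ± 0.12. SEC23A and SEC16A, a scaffold of the exit sites, were lower at -0.10 and -0.11. SEC23A was at -0.20 on the 14 arrays. SEC31B was at -0.13 by its brightest probe, while its 7 further probes had a median of 0.04 and 2 of them were called higher. It did not pass on the 14 arrays, at -0.05. SEC24A had the highest mean, 0.26 ± 0.23, from -0.17 over 0.29 to 0.65 with 1 animal below 0. On arrays with HFD in Cy5 SEC24A was at 0.00, and on the 14 arrays at 0.07 without passing (adjusted p = 0.33, limma), and of its 19 further probes 2 were higher and 2 lower. SEC24B was at 0.11 ± 0.11, and at 0.08 on the 14 arrays, where it did not pass. SAR1A, SEC16B, SEC23IP and SEC24C did not pass, with means between -0.08 and 0.05, but SEC16B was called lower on the 14 arrays, at -0.21.

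In the COPI coat, COPB2, COPA, COPB1, COPG and COPZ1 were lower, COPZ2 was higher and COPE did not pass. COPB2, the beta-prime subunit, ranged from -1.06 over -0.86 to -0.38, with all animals below 0 and a mean of -0.76 ± 0.26, or 1.70-fold lower (adjusted p = 1.42e-06, limma). All its 8 further probes were lower, between -0.80 and -0.52, and on the 14 arrays COPB2 was at -0.44. COPA, the alpha subunit, was at -0.30 ± 0.15 and on the 14 arrays at -0.20, COPB1 at -0.26 ± 0.14 and COPG at -0.17 ± 0.11. COPZ1 was at -0.09 ± 0.11 by its brightest probe, close to the threshold (adjusted p = 0.0488, limma), but at -0.54 and -0.58 by the 2 probes of another transcript. COPZ2, the second zeta subunit, ranged from -0.03 to 0.26 around a mean of 0.14 ± 0.09, and lay at 0.00 on the arrays with HFD in Cy5.

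The p24 receptors had no common direction: 3 of 9 were lower, 2 were higher and 4 did not pass. The shares lower and higher were 33.3% and 22.2%, against 28.9% and 31.4% of all genes. TMED3 ranged from 0.45 over 0.85 to 1.09, with all 10 animals above 0 and a mean of 0.84 ± 0.20, or 1.79-fold higher (adjusted p = 9.42e-08, limma). Its 4 further probes were all higher, as given with their sequences above, and on the 14 arrays TMED3 was at 0.80. The other p24 genes lay between -0.23 and 0.06. TMED9, the lowest, was at -0.23 ± 0.11, from -0.39 to -0.07, below 0 in all animals. TMED7 was at -0.10, TMED8 at -0.08 and TMED4 at 0.06; on the 14 arrays TMED8, at -0.07, and TMED4, at 0.04, did not pass. TMED2, the partner of TMED10, did not pass by its brightest probe, at -0.01 ± 0.08, whereas the 4 probes of 2 other transcripts of the name were called lower, between -0.68 and -0.44. TMED10 was at 0.01 ± 0.06, and its 3 further probes did not pass either.

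Among the TRAPP tethers, 5 of 10 members were higher, 3 were lower and 2 did not pass. The shares higher and lower were 50% and 30%, against 31.4% and 28.9% of all genes. TRAPPC6B ranged from 0.05 over 0.28 to 0.31, with a mean of 0.22 ± 0.10 (adjusted p = 8.94e-05, limma). TRAPPC2L was at 0.18 ± 0.08, TRAPPC3 at 0.15 ± 0.09, TRAPPC5 at 0.11 ± 0.08 and TRAPPC9 at 0.07 ± 0.07. On the 14 arrays TRAPPC3 was at 0.245 and TRAPPC9 at 0.10. TRAPPC2L had 2 further probes called lower and 1 called higher. TRAPPC4, a small core subunit, ranged from -0.64 over -0.38 to -0.29, with a mean of -0.43 ± 0.12, or 1.35-fold lower (adjusted p = 6.01e-07, limma). TRAPPC1 and TRAPPC10 were lower at -0.27 each, but on the 14 arrays they were at -0.04 and -0.08 and did not pass. Of the 11 further TRAPPC10 probes, 2 were higher and 1 lower. TRAPPC6A, a paralog of TRAPPC6B, did not pass by its brightest probe, at -0.02, while its 4 further probes on the same transcript were all lower, between -0.25 and -0.13.

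Of the SEC22 genes, SEC22B, a SNARE of this step, was higher, with all animals above 0. It ranged from 0.08 over 0.25 to 0.59, with a mean of 0.27 ± 0.14 (adjusted p = 9.91e-05, limma). Its 5 further probes were all higher, between 0.20 and 0.35. SEC22A and SEC22C lay at 0.02 ± 0.04 and 0.00 ± 0.06 and did not pass.

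Of the 5 names outside the pathway, SEC14L2, a lipid transfer protein of the SEC14 family, was lower at -0.50 ± 0.16, from -0.72 over -0.50 to -0.25. SEC14L4 of the same family was higher at 0.42 ± 0.15, from 0.22 over 0.41 to 0.66. In both, all 10 animals had one sign and all 7 further probes were called in the same direction. SEC3L1 was higher at 0.26 ± 0.09, SEC14L1 was lower at -0.12 ± 0.07 and SEC14L5 did not pass. SEC14L1 did not pass on the 14 arrays, at -0.03.

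Paralogous members were then compared within animals, in 19 pairs chosen with the values known, by an exact two-sided permutation of signs over the 10 animals. The smallest p this test can give is 0.00195, and 15 of 19 pairs passed after Benjamini-Hochberg adjustment over the pairs. SAR1A exceeded SAR1B by 0.61 ± 0.41 in log2 ratio, in 10 of 10 animals (adjusted exact p = 0.00412), but by 0.32 on arrays with HFD in Cy5, 0.91 on those with HFD in Cy3 and 0.21 on the 14 arrays. SEC24D lay below each of the other SEC24 genes in 10 of 10 animals: the distance was 0.62 to SEC24A, 0.48 to SEC24B and 0.42 to SEC24C (adjusted exact p = 0.00412 for each). On the 14 arrays these distances were 0.42, 0.43 and 0.46, in the other order. The distance to SEC24A was 0.40 on arrays with HFD in Cy5 and 0.85 on those with HFD in Cy3. SEC23A exceeded SEC23B by 0.31 ± 0.14, SEC61A1 lay below SEC61A2 with a difference of -0.43 ± 0.15, and SEC11A exceeded SEC11C by 0.29 ± 0.09, each in 10 of 10 animals. The SEC11A and SEC11C difference was 0.10 on arrays with HFD in Cy5 and 0.48 on those with HFD in Cy3. SEC22B exceeded SEC22C by 0.28 ± 0.12, in 10 of 10 animals. SEC16A and SEC16B differed by -0.02 ± 0.17 and SEC24B and SEC24C by 0.06 ± 0.18, and these pairs did not pass (adjusted exact p = 0.67 and 0.39). These are differences between HFD-to-STD ratios and not between levels, and the sequences compared share at most 8 bases in a row. Of the 19 pairs, 5 changed order with the dyes, and 2 of these had passed. SRP54A and SRP54B differed by -0.17 on arrays with HFD in Cy5 and 0.44 on the others, and SEC24A and SEC24B by -0.07 and 0.37. These 2 differences were -0.01 each on the 14 arrays. The other 3 pairs that changed order were SEC24A and SEC24C, SEC22A and SEC22C, and SEC16A and SEC16B.

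The dye orientation altered the size of many members. In 36 of 69 the mean on arrays with HFD in Cy5 differed from that with HFD in Cy3 (limma over 13827 genes, adjusted p under 0.05), or 52.2%, against 48.8% of all genes. The 2 means had opposite signs in 20 members, 7 of them called: SEC24A, SEC61A2, SEC31B, SEC14L1, SPCS1, SEC23A and TRAPPC9. How many of all genes had opposite signs was not counted, so the 20 cannot be read as particular to the members. The sizes of the lowest members rested in part on the 6 arrays that stood apart. SPCS2 was at -1.65 on these 6 arrays and at -0.52 on the Cy5 arrays of the same animals, and at -0.61 and -0.40 in animals 1 to 4. SAR1B was at -1.55 on the 6 arrays and between -0.19 and -0.15 on the other sets, and COPB2 at -1.30 against values between -0.71 and -0.25. SRP68 kept its size, with means between -1.61 and -1.08 in the 4 sets, and TMED3 lay between 0.57 and 1.04.

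On the 14 arrays without those 6, 32 of the 69 members were lower and 12 of the 69 higher, against 18.3% and 24.9% of all genes. Of the 52 called members, 42 were called there with the same sign and none had the opposite sign. The 10 that lost the call were SEC24A, SEC24B, SEC31B, SEC61A2, SPCS1, TRAPPC1, TRAPPC10, TMED4, TMED8 and SEC14L1, and SEC16B and SEC62 gained one. The median of the 21 entry genes was -0.30 on the 14 arrays and that of the 43 transport genes -0.04. Within the first scan session, which held 1 array of each animal, 32 of the 69 members were lower and 14 higher, against 24.5% and 28.3% of all genes. Within the third session, with 9 arrays, 30 of the 69 were lower and 11 higher, against 17.1% and 19.8% of all genes. No called member turned its sign in either session, and 37 were called the same way in both.

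**Figure D3:**
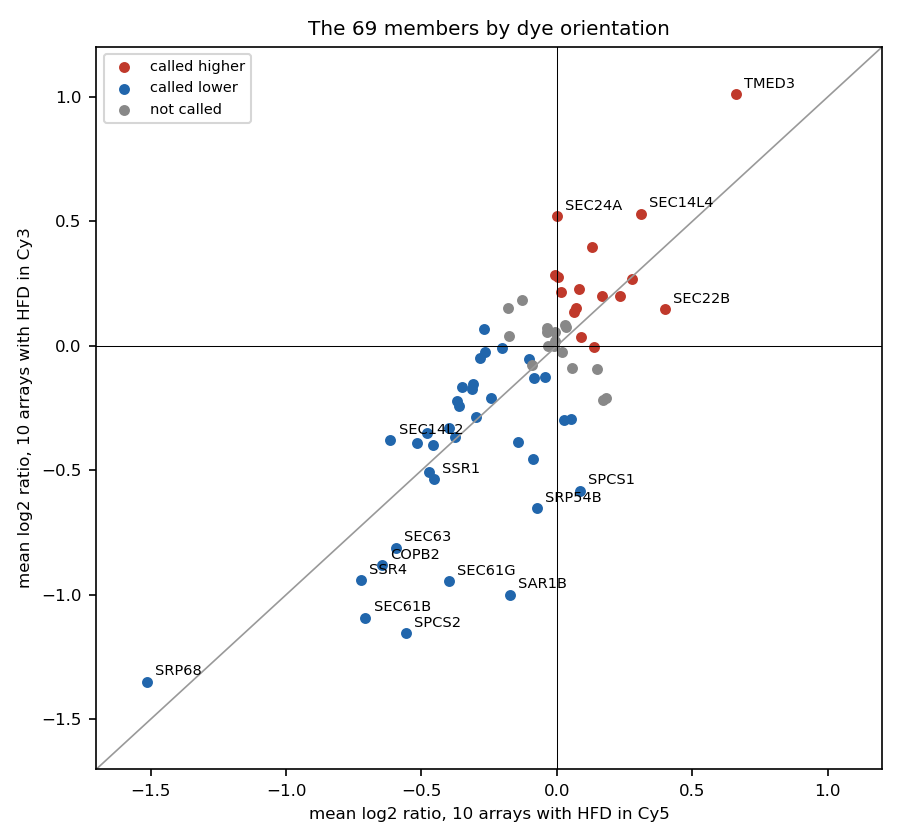
Mean log2 ratio of each of the 69 members on the 10 arrays with HFD in Cy5 (x axis) and on the 10 arrays with HFD in Cy3 (y axis), coloured by call; the grey line marks equal values. SPCS2, at -0.56 and -1.15, and SAR1B, at -0.17 on the x axis, lie far below the line, and SEC24A lies on the vertical axis at 0.52.

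Different probes of a member did not always give the same result. Of the 45 called members with further probes, 40 had at least 1 further probe called in the same direction and 6 had 1 in the opposite direction; among all called genes with further probes, 22.9% had such an opposite probe (p-values of single probes were adjusted over all named probes tested). The 6 were SEC24A, SEC31B, TRAPPC10, TRAPPC2L, TMED7 and TMED8. In SEC62, TMED2, COPZ1 and SRP9 the division followed the assembled transcript: probes of the transcript with the brightest probe lay between -0.17 and 0.02, and those of the other transcripts between -0.80 and -0.39. In TMED2 the brightest probe, at -0.01, holds coding sequence of the gene as listed. The TMED2 probes at -0.68, -0.56 and -0.44, on the other transcripts, hold its reverse complement. Transcript and strand cannot be told apart there. Whether the other transcripts of SEC62, COPZ1 and SRP9 belong to the gene named was not tested.

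**Figure D4:**
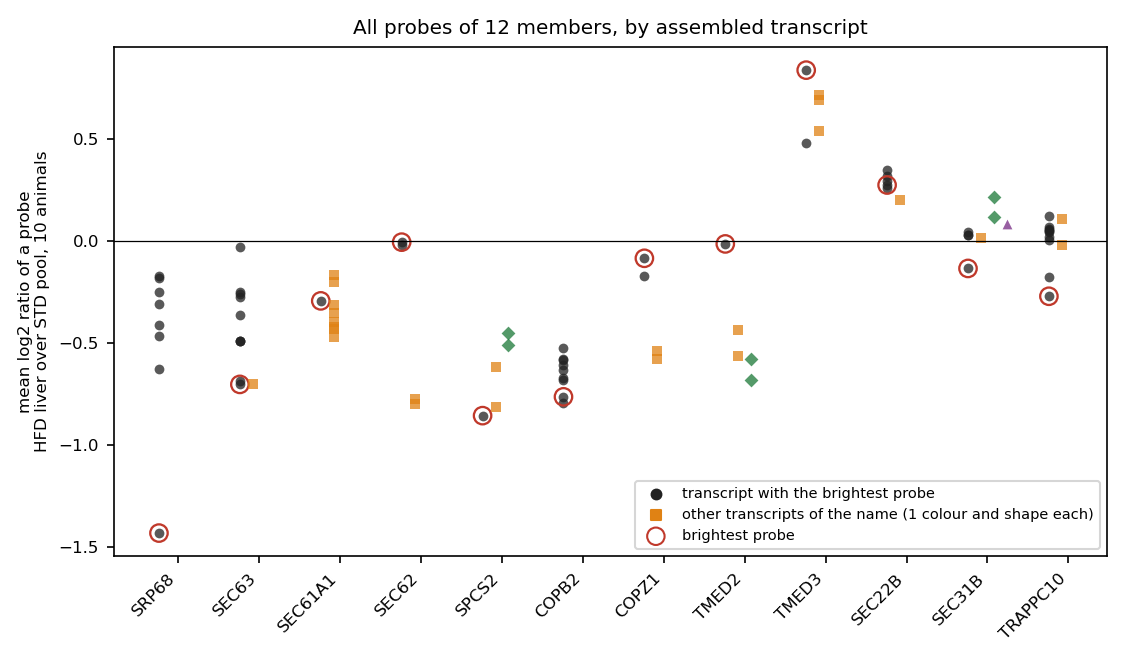
Mean log2 ratio over 10 animals (y axis) of every tested probe of 12 members (x axis); colour and shape separate the assembled transcripts of a name, and a red ring marks the brightest probe. The ringed SRP68 probe is at -1.43 while its other 7 lie between -0.63 and -0.17, and the SEC62, COPZ1 and TMED2 probes fall into separate sets by transcript.

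Further genes of the pathway, outside the name rule, differed in both directions. Of 67 listed companions of ER to Golgi transport, 62 were tested: 30 were lower, 15 were higher and 17 did not pass. Their median was -0.06. The shares lower and higher were 48.4% and 24.2%, against 28.9% and 31.4% of all genes. The lowest were ARF4, a small GTPase of the Golgi, at -0.86 ± 0.31 (adjusted p = 2.49e-06, limma), and TRAM1, a protein beside the SEC61 channel, at -0.84 ± 0.38 (adjusted p = 1.27e-05, limma). Both subunits of the SRP receptor, SRPR at -0.78 ± 0.25 and SRPRB at -0.55 ± 0.29, were lower. TRAM1, SRPR and SRPRB were still called lower on the 14 arrays, at -0.41, -0.49 and -0.28, and 23 companions were lower and 15 higher. The highest were ARFGAP3, which switches off the GTPase of the COPI coat, at 0.52 ± 0.26, and NAPA, which helps to take spent SNAREs apart, at 0.38 ± 0.14. The KDEL receptors, which return ER residents, differed among themselves: KDELR3 was at -0.70 ± 0.23, KDELR2 at -0.24 ± 0.10 and KDELR1 at 0.15 ± 0.06. The partners of SEC22B in the fusion complex, STX5, BET1 and GOSR2, were lower at -0.34, -0.37 and -0.45, STX5 at -0.21 on the 14 arrays.

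Genes that act next to the translocon were mostly lower as well. Of 10 tested genes of N-glycosylation (12 listed), 7 were lower, or 70% against 28.9% of all genes, and none was higher. The median was -0.29. The lowest were DDOST at -0.68 ± 0.19 and KRTCAP2 at -0.47 ± 0.19, both subunits of the oligosaccharyltransferase that adds sugar chains to entering proteins. RPN1, RPN2 and DAD1 of the same enzyme were at -0.44, -0.23 and -0.35. The catalytic subunits STT3A and STT3B were at -0.06 ± 0.20 and 0.00 ± 0.06 and did not pass. Without the 6 arrays, however, 9 of the 10 genes were lower: STT3A was at -0.22 (adjusted p = 0.00236, limma) and STT3B at -0.11 (adjusted p = 0.00666, limma), and KRTCAP2, at -0.26, lay above OSTC and RPN1, at -0.42 each.

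Of 26 targets and regulators of the unfolded protein response, 18 were lower, SEL1L was higher at 0.19 ± 0.14 and 7 did not pass, with a median of -0.21. Lower genes made up 69.2% of this list, against 28.9% of all genes. The lowest were the co-chaperones DNAJC3 at -0.88 ± 0.37 and DNAJB9 at -0.61 ± 0.19. HSPA5, which encodes BiP, was at -0.58 ± 0.25 and CALR at -0.55 ± 0.21, while XBP1, a regulator of this response, was at -0.07 ± 0.26 and did not pass. Without the 6 arrays 16 were lower and 3 higher; DNAJC3 was at -0.47 and CALR at -0.31 there, and HSPA5, at -0.52, lay below both. Of 19 tested genes for cargo of the route (21 listed), 15 were lower and 3 did not pass; MTTP, which loads lipid onto apolipoprotein B and is not itself secreted, was lower at -0.40 ± 0.18. APOB, the main protein of very low density lipoproteins, was the single higher one at 0.27 ± 0.15 (adjusted p = 0.000147, limma). On arrays with HFD in Cy5 APOB was at 0.05, and on the 14 arrays it was at 0.12 and did not pass (adjusted p = 0.0575, limma). Of the cargo genes 79% were lower, against 28.9% of all genes. The lowest were FGB, a fibrinogen chain, at -1.17 ± 0.40, and AMBP at -0.79 ± 0.21.

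Markers of hepatocytes and macrophages differed from the pool. Of 13 tested hepatocyte markers, 8 of which are also on the cargo list, 10 were lower, APOB was higher and 2 did not pass, all 13 well above background in both RNAs on all 20 arrays, with a median of -0.39 and per-animal medians from -0.82 to -0.17. The defining markers ALB and HNF4A were at -0.23 ± 0.12 and -0.39 ± 0.19, but ALB turned with the dyes, with 0.35 on arrays with HFD in Cy5 and -0.81 on those with HFD in Cy3. On the 14 arrays 8 hepatocyte markers were lower and none was higher. Of 7 macrophage markers, 5 were higher, with a median of 0.69, led by LGALS3 at 1.30 ± 0.37, whereas CD163 was lower at -1.25 ± 0.32. Of 9 stellate cell markers 3 were higher and 2 lower, of 9 endothelial markers 3 were higher and 2 lower, shares of 33.3% and 22.2% in each list against 31.4% and 28.9% of all genes; none of 4 cholangiocyte markers passed, and of 6 plasma and B cell markers 4 were lower. None of the 9 listed genes of pancreatic acinar cells was among the genes tested. The part of these markers in the ratios of the secretory genes was not tested, and in bulk liver fewer cells of a type and less RNA per cell cannot be told apart.

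The median of the 21 entry genes was negative in each animal, from -0.45 in animal 10 to -0.22 in animal 1, and that of the 43 transport genes lay between -0.08 and -0.01. The median over all genes lay between -0.01 and 0.02. On the arrays with HFD in Cy5 alone, the entry genes had medians from -0.40 to -0.18 over the animals. Over both arrays of each animal, the 4 TRAP genes had medians from -0.72 to -0.24, and the translocon genes from -0.64 to -0.22. Those of the SRP lay between -0.43 and -0.15 and those of the COPII coat between -0.24 and -0.06. The other roles of the pathway were not of 1 sign. The median of signal peptidase was above 0 in animals 2 and 3 and below it in the other 8. That of the COPI coat was above 0 in animal 9 alone. That of the TRAPP tethers was below 0 in animals 1, 9 and 10, and that of the SEC22 genes in animals 4 and 8. The p24 receptors had a median above 0 in animals 1, 6 and 9.

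**Figure D5:**
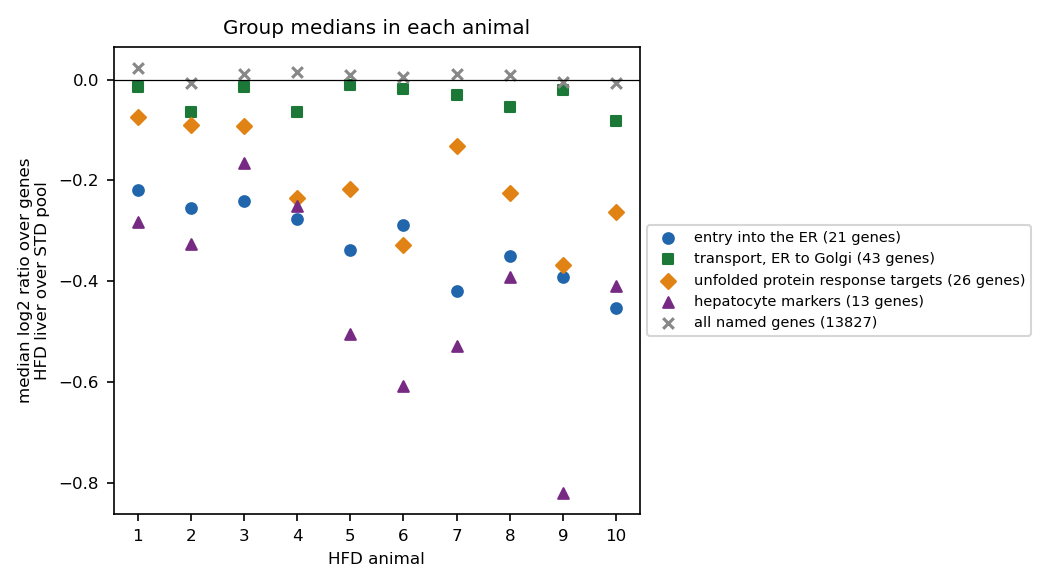
Median log2 ratio of HFD liver over the STD pool (y axis) in each of 10 animals (x axis) for entry genes, transport genes, unfolded protein response targets, hepatocyte markers and all named genes. The entry genes lie between -0.45 and -0.22 in all animals, while the transport genes stay between -0.08 and -0.01.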

How the data were processed

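Liver RNA of 10 HFD animals, the replicates as numbered in the labels, was set against the STD pool on 20 Agilent arrays. The deposited spot intensities in green and red were made with Agilent's Feature Extraction software, per the file headers. Its log10 ratio, per the file headers red over green, entered no value. The authors also deposited log2 ratios per sample, for which the submitters' processing notes name limma. Their column medians for animals 1 to 10 were 0.0000344, -0.0144, -0.000399, -0.0017, 0.0185, -0.0122, -0.00981, 0.00754, -0.00119 and -0.0105; they correlated with the ratios computed here at r between 0.81 and 0.89 over 115479 probes, and their centring and exact scale are unknown. Directions rest on the dyes given in the array names.

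Intensities were corrected with normexp (offset 50), normalised by loess within arrays and averaged over both arrays of an animal (limma 3.58.1, R 4.3.3). Probes well above background in HFD RNA or pool on at least 10 arrays were kept, the brightest standing for its gene. Ratios were tested against 0 with lmFit and eBayes. The test was checked on simulated data with known changes, and the outcome of that check is not reported here. Members, lists and tests were chosen with earlier results of these data known. All members may be named; values over animals are given for the highest and lowest called member of each role and the 6 called members of largest size, and, of each list, the 2 highest and 2 lowest called genes; others named were chosen after their values were seen. Promoters and proteins were not analysed here. Alternatives covered background, normalisation, the authors' ratios, filters, probe choice, dye orientation, arrays, sessions, slides and single animals.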

Additional observations from a re-analysis of the deposited data

Results flagged for a closer look

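SEC24B, a cargo adaptor of the COPII coat, had 1 animal far from the other 9: animal 2 was at a log2 ratio of -0.15, while the others lay between 0.08 and 0.23. The gap to the nearest animal was 0.60 of the whole range, above the 95% limit of Dixon's test for 10 samples. It was the only one of 70 values tested this way, namely the 69 members and their median, and chance alone gives about 1 in 20.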

How the results depend on the processing

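Of the 52 called members, 30 kept direction and call in each of the 26 alternatives, and 9 turned their sign in at least 1. Averaging a gene's probes, SEC31B was at 0.0498, TRAPPC10 at 0.00522 and TMED8 at 0.0331, and taking their median at 0.0675, 0.0235 and 0.0441. On arrays with HFD in Cy5 alone, SEC24A was at -0.00093, SEC61A2 at -0.0062, SEC31B at 0.0277, SEC14L1 at 0.0521 and SPCS1 at 0.0837. On arrays with HFD in Cy3 alone, SEC23A was at 0.0668 and TRAPPC9 at -0.0064. The median of the members was -0.117 with the authors' deposited ratios, -0.121 with the mean and -0.119 with the median of all probes. Companion genes called higher fell to 7 on the Cy5 arrays, and genes called over the array to 5095 in the third session, which holds fewer arrays. Over all alternatives between 11 and 16 members were higher and between 29 and 38 lower. Leaving out 1 animal gave 14 to 16 higher and 33 to 36 lower members, medians from -0.10 to -0.08, 13 to 17 higher and 29 to 31 lower companions, 7811 to 8546 genes called and shares of higher calls from 51.4% to 52.6%; COPZ1, SEC16A, TMED4, TMED8 and TRAPPC9 lost their calls in at least 1 of these. The causes were not tested. No paired analysis was possible because the labels give a single group, the HFD animals against 1 pool. The pool's single RNA hides the spread of the STD animals, and sizes on the 6 arrays that stood apart exceed those on the other 14 for several of the lowest members.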
